A study of Mus musculus with 11 samples.

Results

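The core lung lineage transcription factors were taken as a fixed list of 10 genes: Nkx2-1, Foxa1, Foxa2, Gata6, Cebpa, Klf5, Grhl2, Elf3, Elf5 and Ehf. All 10 had a row among the 24421 in the count table, and all 10 passed the filter on low counts. Messenger RNA was measured by polyA RNA-seq in lung cells of E17.5 mouse embryos, selected with magnetic beads against EpCAM, a surface protein of epithelium. There were 5 PRDM3/16KO libraries and 6 Control libraries, with 6065906 to 7869787 counts each. The PRDM3/16KO group is a double knockout built from floxed Prdm16 and floxed Prdm3 (listed as Mecom) alleles with ShhCre, a Cre driver that is active in Shh-expressing cells, which in the lung are epithelial. Cre came from Prdm3fl/flPrdm16fl/wtShhCre+ fathers and the mothers were Prdm3fl/flPrdm16fl/fl. The alleles of the Control embryos are not given in the labels, and no label says whether the libraries of a group came from separate embryos, so a p-value here covers only library-to-library spread, which may be technical.

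NKX2-1 is the homeodomain protein that marks lung from its first appearance in the foregut, and it acts on surfactant genes together with the forkhead proteins FOXA1 and FOXA2, the zinc-finger protein GATA6 and the leucine-zipper protein C/EBP-alpha. KLF5 and the grainyhead protein GRHL2 keep up epithelial identity, junctions and barrier in many epithelia. ELF3, ELF5 and EHF are epithelium-specific members of the ETS family, and in the developing lung ELF5 is known as a factor of the distal epithelium.

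The factors went different ways. Ehf rose 5.54-fold in PRDM3/16KO epithelium, while its ETS relatives Elf5 and Elf3 fell 3.06-fold and 2.07-fold and Cebpa fell 1.84-fold. Nkx2-1 fell 1.22-fold, Foxa2 and Klf5 rose 1.30-fold and 1.20-fold, and Foxa1, Gata6 and Grhl2 did not pass the test. In all, 3 of 10 factors were higher and 4 were lower by edgeR's quasi-likelihood test at an adjusted p under 0.05. Across the 13916 genes tested, 21.1% were higher and 21.8% lower, 42.9% together, so the factors were called at 7 of 10 in a profile where calls were common. At least 2-fold changes were called for 3 of the 10 factors and for 11.5% of all genes. The values of the groups did not overlap for 5 of the 10 factors, against 28.5% of all genes. The median log2 fold change of the 10 was -0.10 and that of all genes 0.0023; the median size of the change regardless of direction was 0.33 for the 10 and 0.24 for all genes.

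**Figure D1:**
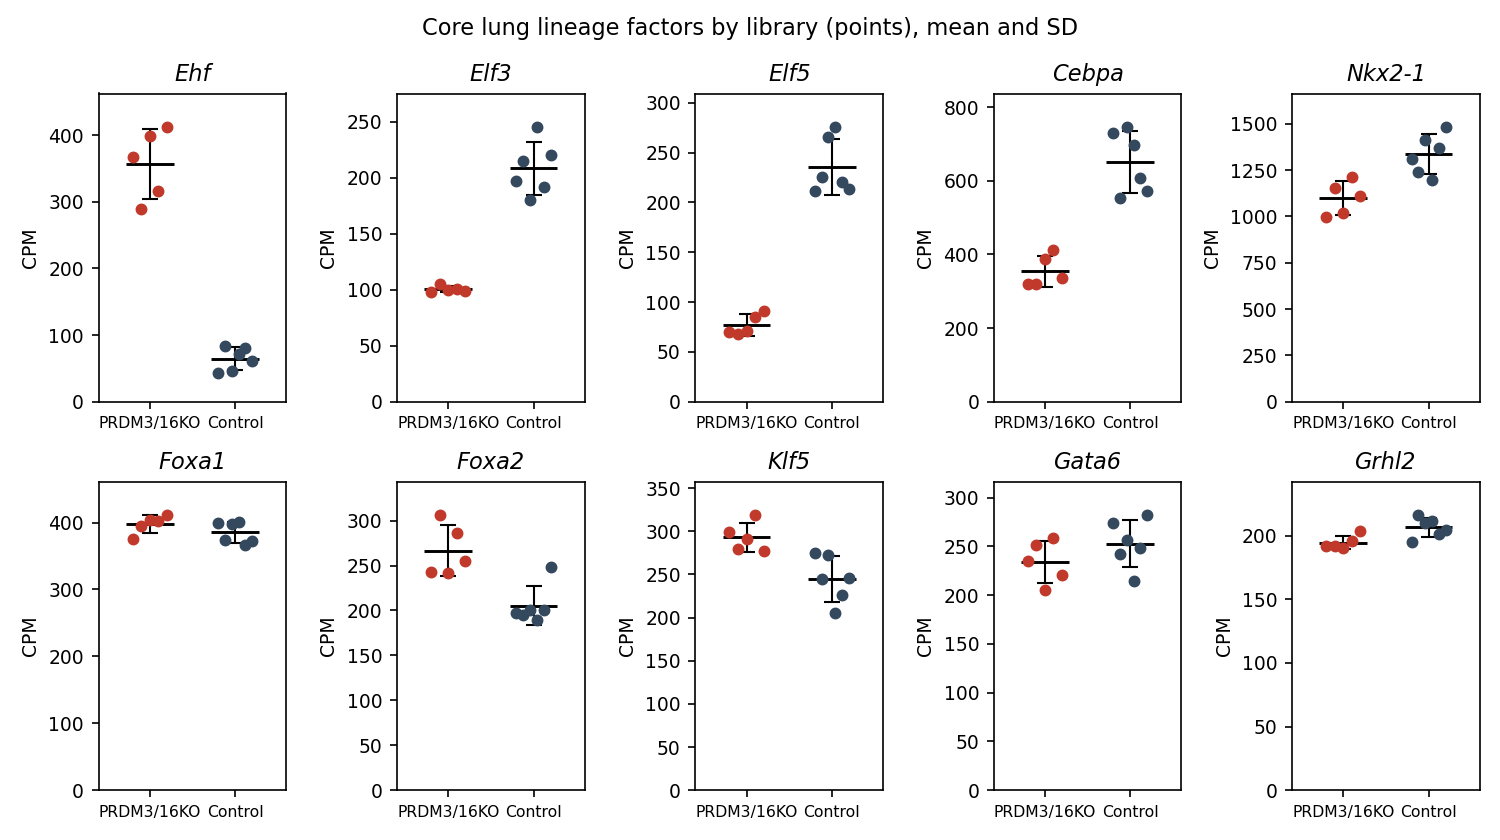
Level of each factor in CPM (TMM-scaled) in the 5 PRDM3/16KO libraries (left) and the 6 Control libraries (right); points are libraries, the wide bar is the mean and the whiskers are the SD. Ehf and Klf5 lie wholly higher and Elf3, Elf5 and Cebpa wholly lower in PRDM3/16KO, while Nkx2-1, Foxa2, Foxa1, Gata6 and Grhl2 overlap.

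Levels are given in CPM, a gene's count relative to its library's total, with totals corrected by the trimmed mean of M values (TMM). Log2 fold changes are PRDM3/16KO over Control from one edgeR fit across all genes, with p-values adjusted over all genes. Of the targeted genes, Prdm16 was lower, with overlapping groups, at 166 ± 12.2 CPM in PRDM3/16KO and 202 ± 21.9 CPM in Control (SD; -0.28; edgeR, adjusted p = 0.00905). Mecom was higher, at 340 ± 16.0 CPM in PRDM3/16KO and 219 ± 9.99 CPM in Control (0.64; edgeR, adjusted p = 3.26e-07). Which exons were deleted is not in the labels, and shortened transcripts would still be counted, so these values do not check the deletion. Epcam averaged 261 ± 10.8 CPM in PRDM3/16KO and 252 ± 25.3 CPM in Control and was not called (edgeR, adjusted p = 0.601). Summed markers of alveolar type 2 cells ran from 2817 to 4538 CPM in PRDM3/16KO and from 7496 to 13785 CPM in Control, with 11 of 12 lower. Those of neuroendocrine cells ran from 521 to 648 CPM in PRDM3/16KO and from 22.7 to 47.8 CPM in Control, with 5 of 5 tested higher. Mesothelial markers summed to 478 to 604 CPM in PRDM3/16KO and 176 to 306 CPM in Control, with 7 of 8 higher, and basal cell markers to 308 to 516 CPM in PRDM3/16KO and 124 to 229 CPM in Control, with 3 of 4 tested higher. Krt5, which was not called, stands in both of these lists. Msln made up most of the mesothelial sum, averaging 430 CPM in PRDM3/16KO and 208 CPM in Control. Krt15 made up most of the basal sum, averaging 344 CPM in PRDM3/16KO and 154 CPM in Control. No marker of these 4 lists was at 0. These 4 are the marker lists whose sums did not overlap between the groups. Alveolar type 1 sums overlapped, with 3 higher and 3 lower of 12. Airway secretory markers had 1 higher and 1 lower of 6, and endothelial markers 4 higher and 1 lower of 9 tested. Hematopoietic markers had 2 higher and 0 lower of 8 tested, and proliferation markers 0 higher and 2 lower of 20. Among all genes, 21.1% were higher and 21.8% lower. Y-linked transcripts were high in PRDM3/16KO library 4 and Control libraries 1, 3, 4 and 5, and low in the other 6. In bulk RNA, fewer cells of a type and less RNA per cell cannot be told apart, and the part of these cell types in the factors' values was not tested.

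The promoters of the 4 factors that fell are shown because these factors share a direction of change. Each line holds the 250 bases before an annotated start, from RefSeq on GRCm38.p6 (mm10), written 5′ to 3′ on the gene's own strand, and capitals mark a match to a searched motif. The Elf3 window is chr1:135258473-135258722 (minus strand), the Elf5 windows are chr2:103411848-103412097 and chr2:103423818-103424067 (plus strand), the Cebpa window is chr7:35119043-35119292 (plus strand) and the Nkx2-1 window is chr12:56536909-56537158 (minus strand).
Elf3: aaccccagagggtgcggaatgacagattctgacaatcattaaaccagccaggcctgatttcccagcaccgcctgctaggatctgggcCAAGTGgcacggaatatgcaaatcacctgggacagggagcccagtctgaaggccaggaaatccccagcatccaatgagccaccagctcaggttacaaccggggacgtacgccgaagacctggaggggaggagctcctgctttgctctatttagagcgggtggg
Elf5 start 1: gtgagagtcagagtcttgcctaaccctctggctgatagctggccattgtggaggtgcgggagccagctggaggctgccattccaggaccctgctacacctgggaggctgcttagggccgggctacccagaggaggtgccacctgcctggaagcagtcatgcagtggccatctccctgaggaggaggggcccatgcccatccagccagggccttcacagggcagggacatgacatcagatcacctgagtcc
Elf5 start 2: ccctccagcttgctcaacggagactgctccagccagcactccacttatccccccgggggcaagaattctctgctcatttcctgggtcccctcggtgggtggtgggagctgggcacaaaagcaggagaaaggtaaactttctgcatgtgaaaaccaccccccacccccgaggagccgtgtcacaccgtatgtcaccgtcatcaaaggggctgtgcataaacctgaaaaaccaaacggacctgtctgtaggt
Cebpa: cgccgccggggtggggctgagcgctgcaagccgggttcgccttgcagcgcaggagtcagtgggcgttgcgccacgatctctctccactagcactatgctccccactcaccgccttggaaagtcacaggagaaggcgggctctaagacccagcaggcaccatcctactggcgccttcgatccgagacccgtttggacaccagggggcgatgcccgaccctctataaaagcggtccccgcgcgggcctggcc
Nkx2-1: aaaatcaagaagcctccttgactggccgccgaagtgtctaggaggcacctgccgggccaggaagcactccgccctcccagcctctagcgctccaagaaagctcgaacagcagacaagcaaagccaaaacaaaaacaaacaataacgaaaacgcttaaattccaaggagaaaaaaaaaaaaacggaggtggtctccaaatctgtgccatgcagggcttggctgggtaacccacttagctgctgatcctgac

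The motifs searched on both strands were the core letters of the factors' own families and of MECOM. They were CAAGTG for NKX2 proteins, present in 11.6% of 32817 promoter windows of the same length, TGTTTAC for FOXA (3.2%), AGATAA for GATA (9.99%), TTGCGNAA for C/EBP (0.67%), GGGCGGG for KLF (23.4%), AACNNGTT for grainyhead (3.64%) and GGAAGT for ETS (19.7%). MECOM, which has separate groups of zinc fingers, was searched with GATAAGATA (0.113%) and GATGAG (10.1%); the first can share letters with the GATA motif. Among the 5 windows shown, Elf3 held the only match, a CAAGTG from 163 to 158 bases before the start. Windows were used for 6 of the 10 factors, with 9 starts in all. Of those not shown, the Foxa1 window held TGTTTAC on the opposite strand, starting 141 bases before the start, and GGGCGGG on each strand. A Foxa2 window (start 2) held GGGCGGG and GGAAGT on each strand, another (start 3) held AGATAA and the third held none. Neither MECOM motif was found in the 9 windows. Ehf, Klf5 and Grhl2 had no window, and Gata6 was not searched. A match is only a run of letters, and no match says only that these letters are not in this window.

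Nkx2-1 (chromosome 12, 56531958 to 56536908, minus strand) was the most abundant factor. It was counted at 999, 1156, 1016, 1213 and 1108 CPM in PRDM3/16KO libraries 1 to 5, and between 1195 and 1485 CPM in Control, with a median of 1340. In 4 of 5 PRDM3/16KO libraries the level was below every Control library, and in library 4 it was above the lowest of them. The log2 fold change was -0.28 (SE 0.080; edgeR, adjusted p = 0.010). The call was lost with a mesenchymal covariate (-0.28; edgeR, adjusted p = 0.0580), with library size alone as the scaling (-0.18; edgeR, adjusted p = 0.10) and among libraries with high Y-linked transcripts (-0.13; edgeR, adjusted p = 0.725). Of 19 mesenchymal markers listed, none of them at 0, 18 were tested. The mean log2 CPM of these 18 ran from 4.84 to 5.54 in PRDM3/16KO and from 4.35 to 5.05 in Control. Of the 18 markers, 8 were higher and 1 lower, beside 21.1% higher and 21.8% lower among all genes. The part of these markers in the Nkx2-1 value was not tested beyond that covariate.

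Foxa1 and Foxa2 encode forkhead pioneer proteins that open closed chromatin and overlap in function in lung epithelium. Foxa2 (chromosome 2, 148042877 to 148046969, minus strand) was counted at 243, 306, 242, 287 and 255 CPM in PRDM3/16KO, and between 189 and 249 CPM in Control, with a median of 199. The groups overlapped only through Control library 6, at 249 CPM; the other 5 Control libraries were below every PRDM3/16KO library. The log2 fold change was 0.38 (SE 0.084; edgeR, adjusted p = 0.00206). It was 0.44 without Control library 6, 0.53 among libraries with high Y-linked transcripts and 0.23 among those with low Y-linked transcripts, the last not called (edgeR, adjusted p = 0.232).

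Foxa1 (chromosome 12, 57540628 to 57546916, minus strand), 1004 kb from Nkx2-1, averaged 398 ± 13.4 CPM in PRDM3/16KO and 385 ± 15.5 CPM in Control. Its log2 fold change was 0.05 (95% interval -0.08 to 0.17; edgeR, adjusted p = 0.544), which bounds any change below the Foxa2 estimate. Library-size scaling alone, which moved the median of all genes to 0.11, gave 0.15 (edgeR, adjusted p = 0.0269). The log2 ratio of Foxa1 to Foxa2 counts within a library, which needs no scaling, was 0.58 ± 0.15 in PRDM3/16KO and 0.91 ± 0.18 in Control (SD). The difference was -0.33 (exact permutation test, two-sided, p = 0.0173, adjusted p = 0.0188 over 13 pairs), with overlapping ranges.

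Gata6 (chromosome 18, 11052064 to 11085635, plus strand), a zinc-finger factor of endoderm, averaged 234 ± 21.8 CPM in PRDM3/16KO and 253 ± 24.1 CPM in Control. Its log2 fold change was -0.11 (95% interval -0.29 to 0.07; edgeR, adjusted p = 0.284), and the groups overlapped. The span of the antisense gene 1010001N08Rik reaches over an exon of Gata6, and this gene was not called either (0.19; edgeR, adjusted p = 0.432). The strand setting of the counting is not given, so reads from a stretch shared by the pair cannot be told apart.

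Cebpa (chromosome 7, 35119293 to 35121928, plus strand) encodes C/EBP-alpha, which is needed for maturation of type 2 cells. It was counted at 319, 319, 387, 412 and 335 CPM in PRDM3/16KO, and between 554 and 747 CPM in Control, with a median of 652. Every PRDM3/16KO library was below every Control library, and Cebpa fell by 0.88 on the log2 scale (SE 0.10; edgeR, adjusted p = 4.83e-06). Cebpa was highest in the libraries with high Y-linked transcripts in both groups, PRDM3/16KO library 4 and Control libraries 1, 3, 4 and 5. The log2 fold change was -0.76 among those libraries, with 1 PRDM3/16KO library assumed to vary like the others, and -0.74 among the rest, and both were called (edgeR, adjusted p = 0.0205 and 0.000549).

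Klf5 (chromosome 14, 99298691 to 99315036, plus strand) was counted at 299, 279.7, 290.4, 319 and 277 CPM in PRDM3/16KO, and between 205 and 275 CPM in Control, with a median of 245. The groups did not overlap, but the lowest PRDM3/16KO library and the highest Control library lay at 277 and 275 CPM. The log2 fold change was 0.26 (SE 0.078; edgeR, adjusted p = 0.0140). The call was lost with the mesenchymal covariate (0.22; edgeR, adjusted p = 0.128), and among libraries with low (0.22; edgeR, adjusted p = 0.0666) or high Y-linked transcripts (0.37; edgeR, adjusted p = 0.251), and the adjusted p does not pass a threshold of 0.01.

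Grhl2 (chromosome 15, 37233036 to 37363569, plus strand) averaged 195 ± 5.37 CPM in PRDM3/16KO and 207 ± 7.66 CPM in Control, the narrowest spread relative to its mean of any factor in Control. Its log2 fold change was -0.09 (95% interval -0.20 to 0.03; edgeR, adjusted p = 0.194) and 0.02 with library-size scaling alone. The groups overlapped.

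**Figure D2:**
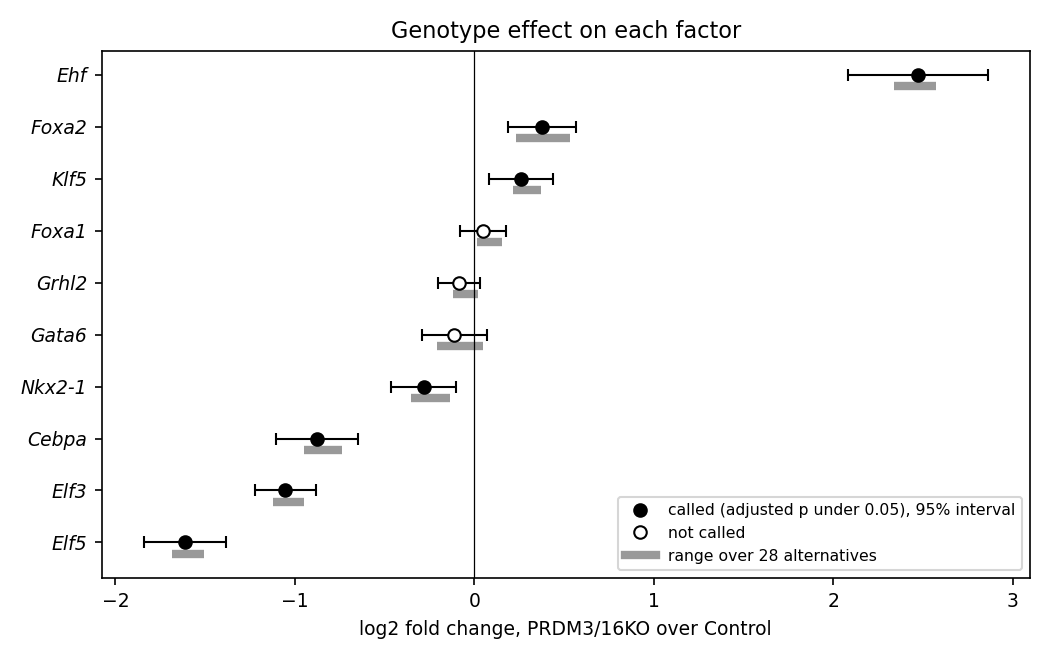
Log2 fold change of each factor, PRDM3/16KO over Control, with its 95% interval (points and whiskers) and the range of the estimate over 28 alternative settings (grey bars); filled points passed the edgeR test and open points did not. Ehf, at 2.47, and Elf5, at -1.61, lie at the ends, and the open points are Foxa1 (0.05), Grhl2 (-0.09) and Gata6 (-0.11).

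The 3 epithelium-specific ETS factors on the list showed the widest spread. Ehf (chromosome 2, 103263433 to 103303278, minus strand) was counted at 368, 289, 398, 315 and 413 CPM in PRDM3/16KO, and between 42.8 and 83.4 CPM in Control, with a median of 66.3. The lowest PRDM3/16KO library was above the highest Control library by more than the whole Control range. The log2 fold change was 2.47 (SE 0.17; edgeR, adjusted p = 9.21e-08), and 253 of the 13916 genes had a larger one.

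Elf5 (chromosome 2, 103411688 to 103450989, plus strand) went the other way. It was counted at 69.5, 67.9, 70.4, 85.3 and 91.4 CPM in PRDM3/16KO, and between 211 and 276 CPM in Control, with a median of 223. The groups were far apart, and the log2 fold change was -1.61 (SE 0.10; edgeR, adjusted p = 7.65e-09), the smallest p among the factors.

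Elf3 (chromosome 1, 135253575 to 135258568, minus strand) fell as well. Its levels were 97.9, 105, 99.4, 101 and 99.3 CPM in PRDM3/16KO, and between 180.1 and 246 CPM in Control, with a median of 206. The 5 PRDM3/16KO libraries lay within a few CPM of each other and below every Control library, and the log2 fold change was -1.05 (SE 0.076; edgeR, adjusted p = 3.16e-08). The calls of Ehf, Elf5, Elf3 and Cebpa held under all 28 alternatives, with log2 fold changes from 2.34 to 2.57, from -1.68 to -1.50, from -1.12 to -0.95 and from -0.95 to -0.74.

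Per kilobase of exon, these opposite changes left a different mixture of the 3 messages. Ehf made up 52.1 ± 4.07% of their summed CPM per kilobase in PRDM3/16KO and 7.88 ± 1.94% in Control. Elf3 made up 37.2 ± 3.71% in PRDM3/16KO and 64.5 ± 2.83% in Control, and Elf5 10.7 ± 1.30% in PRDM3/16KO and 27.6 ± 3.13% in Control. No share overlapped between the groups. With the exons of all transcripts joined, the sum itself was 122 ± 9.31 CPM per kilobase in PRDM3/16KO and 146 ± 14.1 in Control, and there the ranges overlapped, at 111 to 134 in PRDM3/16KO and 133 to 171 in Control. Per kilobase of the longest transcript the sums ran from 135.7 to 167.8 in PRDM3/16KO and from 168.4 to 217.9 in Control and did not overlap, and the Ehf share was 52.5 ± 3.98% in PRDM3/16KO and 7.70 ± 1.93% in Control.

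**Figure D3:**
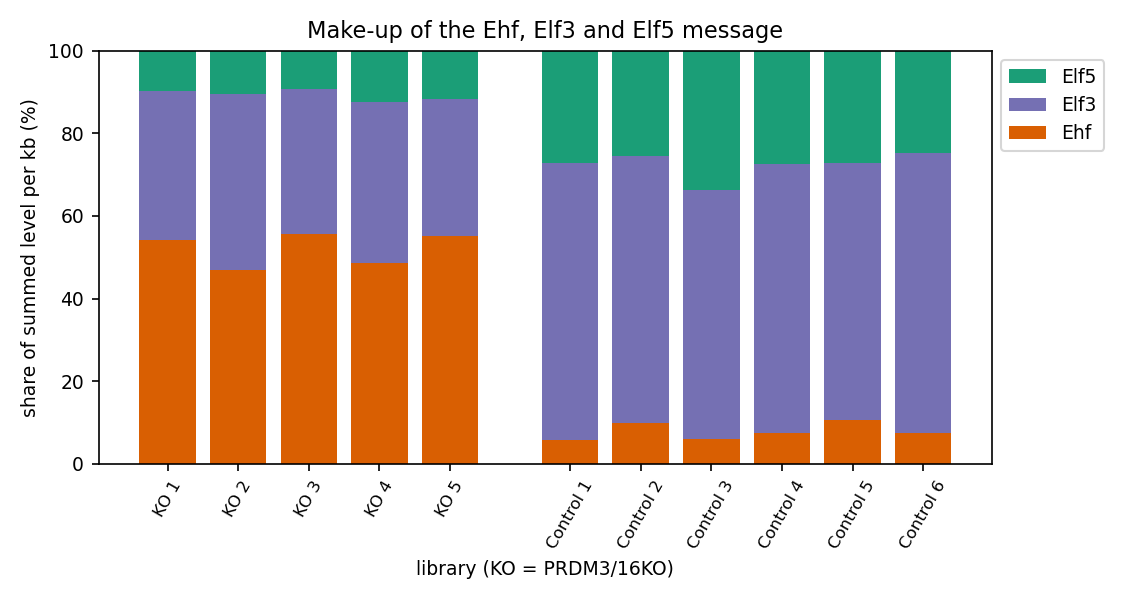
Share of Ehf, Elf3 and Elf5 in their summed level per kilobase of exon (percent), 1 bar per library, with the 5 PRDM3/16KO libraries (KO) left of the 6 Control libraries. Ehf holds 46.8% to 55.7% of each PRDM3/16KO bar and 5.79% to 10.5% of each Control bar.

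Within libraries, the log2 ratio of Elf5 to Ehf counts was -2.21 ± 0.25 in PRDM3/16KO and 1.91 ± 0.45 in Control, a difference of -4.12. The ratio of Elf3 to Ehf differed by -3.55 and that of Elf5 to Elf3 by -0.57, so Elf5 fell more than Elf3. None of these 3 ratios overlapped between the groups (exact permutation test, two-sided, p = 0.00433, the smallest that 5 against 6 libraries allow, adjusted p = 0.00625 over 13 pairs). Set against Nkx2-1 in the same library, Ehf moved by 2.79, Foxa2 by 0.66 and Klf5 by 0.55 on the log2 scale. Cebpa moved by -0.59, Elf3 by -0.76 and Elf5 by -1.33, again without overlap and with the same p. Foxa1 (0.33; exact permutation test, adjusted p = 0.0113), Grhl2 (0.20; adjusted p = 0.0390) and Gata6 (0.17; adjusted p = 0.0188) moved up relative to Nkx2-1 with overlapping ranges. All ratios to Nkx2-1 share a gene that itself fell (-0.28), so they are not independent of each other. By their own log2 fold changes, Foxa1 (0.05), Grhl2 (-0.09) and Gata6 (-0.11) were not called. The Grhl2 ratio lost its call without PRDM3/16KO library 1, 3 or 5 or Control library 1, 3, 5 or 6, with adjusted p of 0.0667 to 0.0857.

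Ordered by level per kilobase, the factors changed places between the groups. In PRDM3/16KO the order was Nkx2-1 (386 CPM per kilobase), Cebpa (134), Foxa1 (119.5), Foxa2 (113), Ehf (64.0), Klf5 (56.3), Elf3 (45.3), Gata6 (36.0), Grhl2 (22.6) and Elf5 (13.1). The ranges of Cebpa and Foxa1, of Foxa1 and Foxa2, and of Ehf and Klf5 overlapped there. In Control it was Nkx2-1 (469.8), Cebpa (247), Foxa1 (116), Elf3 (94.0), Foxa2 (86.6), Klf5 (47.1), Elf5 (40.1), Gata6 (38.9), Grhl2 (24.0) and Ehf (11.5). Here Foxa1 and Elf3, Elf3 and Foxa2, Klf5 and Elf5, and Elf5 and Gata6 overlapped. Ehf thus stood in place 5 in PRDM3/16KO and last in Control, and Elf5 last in PRDM3/16KO and in place 7 in Control. With the longest transcript as the length, Foxa2 and Foxa1, Klf5 and Ehf, and Gata6 and Elf3 changed places in PRDM3/16KO, and the Control order was the same.

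Ehf and Elf5 are neighbours. They lie on opposite strands with their starts facing each other 108 kb apart, and the 2 genes of the table between them, A930006I01Rik and BC016548, had 1 and 2 counts over all libraries. The genes beyond them, chosen by position after values had been seen, went both ways. Downstream of Elf5, Cat, which encodes catalase, fell (-0.86; edgeR, adjusted p = 3.85e-05) and Abtb2 rose (1.03; edgeR, adjusted p = 0.000282). On the Ehf side Apip fell (-0.83; edgeR, adjusted p = 0.00146), as did Cd44, a hyaluronan receptor (-0.90; edgeR, adjusted p = 0.00122). Pdhx, Nat10, Caprin1 and Slc1a2 did not pass.

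**Figure D4:**
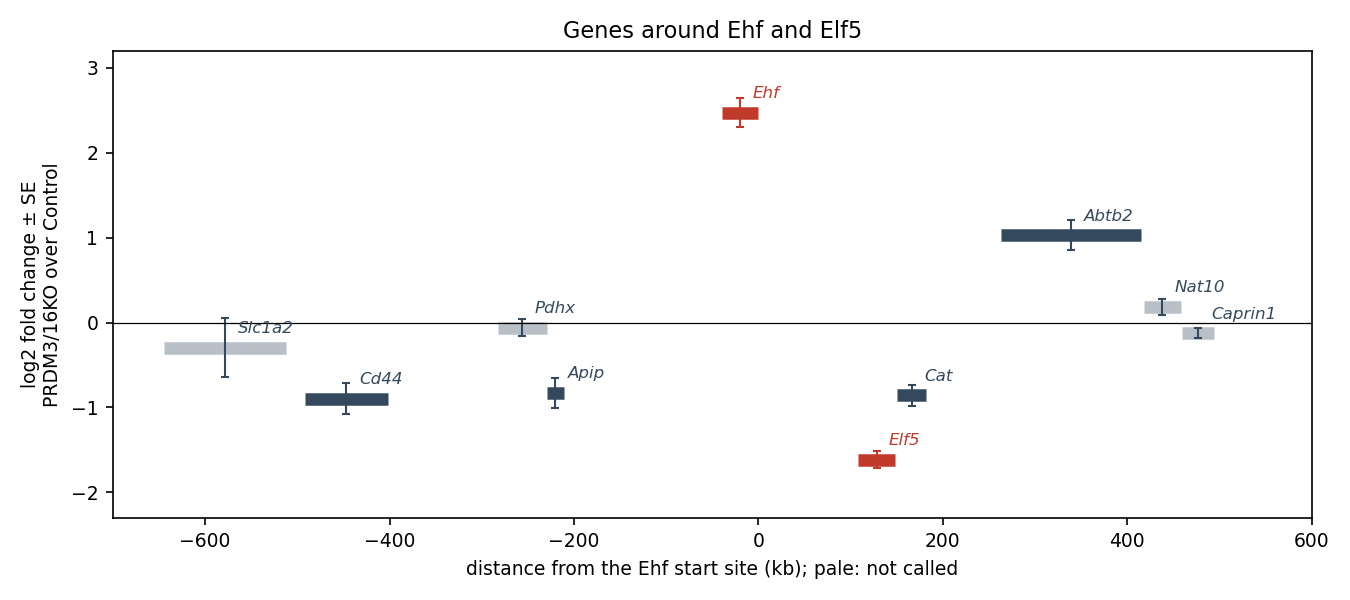
Log2 fold change (PRDM3/16KO over Control, ± SE) of the tested genes around Ehf and Elf5 by distance from the Ehf start in kilobases; each bar spans a gene, red bars are the factors and pale bars did not pass the edgeR test. Ehf at 2.47 and Elf5 at -1.61 face each other across a gap of 108 kb with no other tested gene in it.

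Within 250 kb of the factors, 29 other genes were tested, of which 5 were higher, 10 lower and 14 not called, beside 42.9% called among all genes. None of the 6 tested around Klf5, Gata6 and Foxa1 was called. Pax9, a paired-box gene 155 kb from Nkx2-1, averaged 26.0 ± 6.56 CPM in PRDM3/16KO and 1.83 ± 1.02 CPM in Control (log2 fold change 3.83; edgeR, adjusted p = 1.44e-07). Nkx2-9, a homeobox relative on the same stretch, fell with overlapping groups (-0.82; edgeR, adjusted p = 0.00740). Its level was low, at 1.75 ± 0.442 CPM in PRDM3/16KO and 3.09 ± 0.588 CPM in Control. Nkx2-9 was not called among libraries with low Y-linked transcripts (-0.97). Mbip fell as well (-0.19; edgeR, adjusted p = 0.0330). Beside Cebpa, Lrp3 was higher, at 36.5 ± 1.61 CPM in PRDM3/16KO and 11.8 ± 3.17 CPM in Control (1.62; edgeR, adjusted p = 2.25e-07). Slc7a10 (0.78) was also higher there, while Pepd (-0.27) and Rhpn2 (-0.39) were lower. Beside Elf3, Rnpep fell (-0.63; edgeR, adjusted p = 9.31e-06), as did Shisa4 (-0.55; edgeR, adjusted p = 0.0196), while Ipo9 was higher (0.22; edgeR, adjusted p = 0.0245) and the other 5 tested there did not pass.

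The families of the 10 factors hold 61 other genes on the list used, of which 45 were tested. Among them 12 were higher, 15 lower and 18 not called, with a median log2 fold change of -0.02. This is 27 of 45 called, beside 42.9% of all genes. Foxa3, the forkhead relative known from liver and gut, was higher, at 6.70 ± 1.33 CPM in PRDM3/16KO and 1.75 ± 0.469 CPM in Control (1.94; edgeR, adjusted p = 2.28e-06). The only GATA relative tested, Gata5, did not pass (-0.09; edgeR, adjusted p = 0.810).

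Of 4 other C/EBP genes tested, 2 were lower and 1 was higher, beside 21.8% lower and 21.1% higher among all genes. Cebpg did not pass (0.05; edgeR, adjusted p = 0.490). Cebpd averaged 90.2 ± 11.7 CPM in PRDM3/16KO and 217 ± 32.0 CPM in Control (-1.26; edgeR, adjusted p = 2.65e-07). Cebpb fell by less (-0.64; edgeR, adjusted p = 0.00500). Ddit3, which encodes the stress-induced C/EBP protein CHOP, was higher (0.24; edgeR, adjusted p = 0.0264). This call was lost without PRDM3/16KO library 1 or 3, without Control library 5, and without Control libraries 5 and 6 together. The call was also lost with the mesenchymal covariate and with the replicate number as a block.

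Among 14 KLF relatives tested, 2 were higher and 6 lower, beside 21.1% higher and 21.8% lower among all genes. Klf15 fell most, at 38.6 ± 3.70 CPM in PRDM3/16KO and 112 ± 23.6 CPM in Control (-1.54; edgeR, adjusted p = 9.11e-07). Klf6 (-0.63) and Klf8 (-0.82) also fell, and Klf13 did not pass (-0.19; edgeR, adjusted p = 0.0708). The number lower was 3 without PRDM3/16KO library 1, 4 or 5 or Control library 3, and also 3 with library size alone, upper-quartile factors or the Y-linked or mesenchymal covariate.

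Grainyhead relatives split. Grhl1 averaged 76.3 ± 5.01 CPM in PRDM3/16KO and 29.2 ± 5.40 CPM in Control (1.39; edgeR, adjusted p = 5.64e-08). Grhl3 was also higher (0.53; edgeR, adjusted p = 0.0120). Tfcp2l1 was lower, at 96.4 ± 4.30 CPM in PRDM3/16KO and 241 ± 53.4 CPM in Control (-1.32; edgeR, adjusted p = 2.33e-06), while Ubp1 did not pass (0.01; edgeR, adjusted p = 0.921).

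In the ETS family, 19 relatives were tested, 6 higher and 5 lower, so 11 were called, beside 42.9% of all genes. Spdef, known from goblet cells, averaged 25.1 ± 4.93 CPM in PRDM3/16KO and 8.07 ± 2.08 CPM in Control (1.64; edgeR, adjusted p = 2.41e-06). Etv3 was higher (1.04; edgeR, adjusted p = 4.17e-07), and Etv5, which answers to FGF signals, was lower (-1.50; edgeR, adjusted p = 3.37e-10). Elf1 was the most abundant relative that did not pass (-0.10; edgeR, adjusted p = 0.416).

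**Figure D5:**
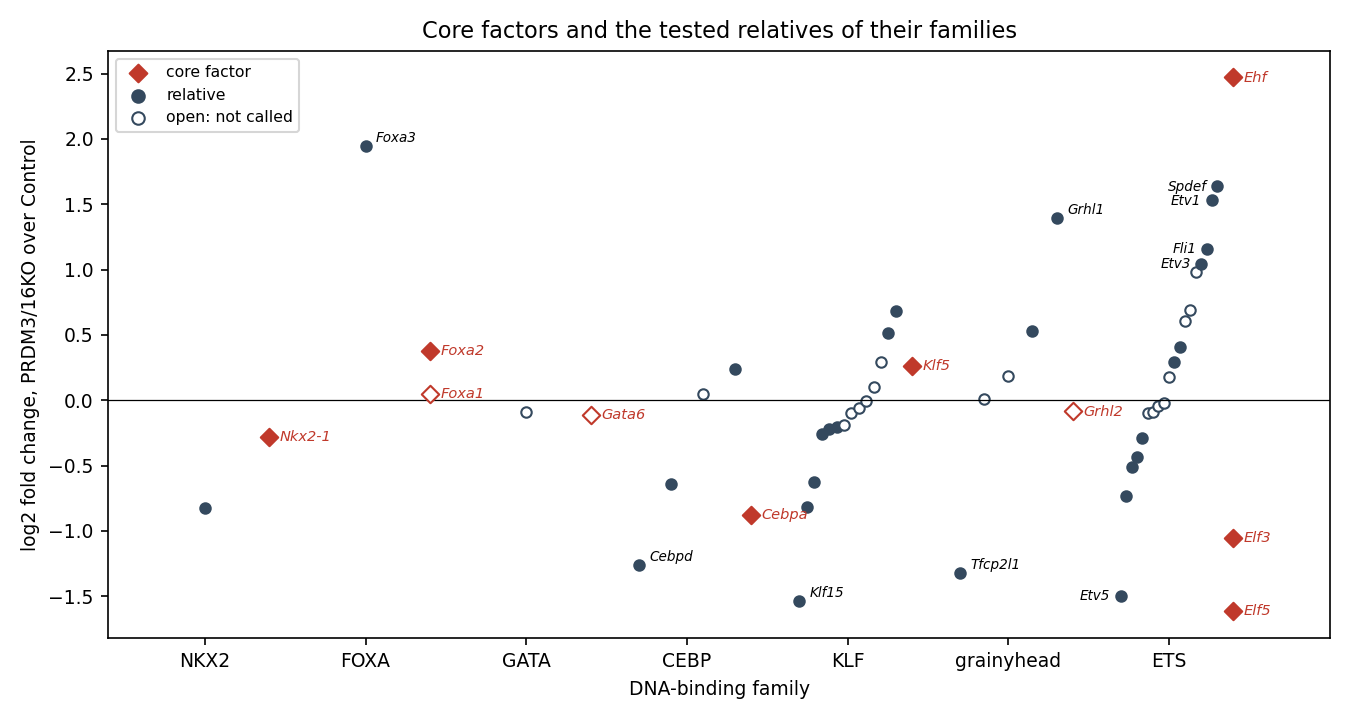
Log2 fold change (PRDM3/16KO over Control) of the 10 factors (red diamonds) and their 45 tested relatives (blue circles) by DNA-binding family; open symbols did not pass the edgeR test. Foxa3 (1.94), Grhl1 (1.39) and Spdef (1.64) lie above Foxa1 (0.05), Grhl2 (-0.09) and Elf3 (-1.05) of the same families. Tfcp2l1 (-1.32) and Etv5 (-1.50) lie below Grhl2 and Elf3, and Ehf (2.47) lies above every tested ETS relative.

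Of 17 partners and coactivators of these factors, 1 was higher and 8 lower, beside 21.1% and 21.8% of all genes. Stat3, a cytokine-activated factor, averaged 167 ± 10.6 CPM in PRDM3/16KO and 344 ± 77.3 CPM in Control (-1.04; edgeR, adjusted p = 3.63e-05). Wwtr1, which encodes TAZ, a coactivator of the Hippo pathway that binds NKX2-1, was lower (-0.62; edgeR, adjusted p = 0.000125). Tead4, a DNA-binding partner of that coactivator, was higher (0.87; edgeR, adjusted p = 0.000109), and Tead1 did not pass (0.11; edgeR, adjusted p = 0.463). Without Control library 1, 5 or 6 the number higher was 2, and with library size alone 2 were higher and 5 lower.

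The genes known to be bound by the factors, or to need them, were listed in 3 groups. Of 14 surfactant and related genes tied to NKX2-1, FOXA, GATA6 or C/EBP-alpha, 13 were lower and 0 higher, beside 21.8% and 21.1% of all genes, with a median log2 fold change of -1.68. Most of these genes, Napsa and Lamp3 among them, also stand in the alveolar type 2 marker list given above. The counts of these lists are therefore not independent. The lysosomal protease gene Napsa averaged 30.7 ± 4.52 CPM in PRDM3/16KO and 161 ± 33.2 CPM in Control (-2.39; edgeR, adjusted p = 1.33e-08), and Lamp3 (-2.79) and Fasn (-1.67) were lower too. Scgb3a2, an airway secretory gene, did not pass (-0.17; edgeR, adjusted p = 0.534).

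Of 10 alveolar type 1 genes tied to NKX2-1 or KLF5, 2 were higher and 2 lower, a share close to the 42.9% of all genes, and the median was 0.01. Cldn18, a tight-junction gene, was lower, at 1317 ± 76.7 CPM in PRDM3/16KO and 2097 ± 216 CPM in Control (-0.67; edgeR, adjusted p = 1.22e-05). Pdpn (-0.61) was lower and Ager (0.65) higher, while Clic5 did not pass (0.19; edgeR, adjusted p = 0.272). Without Control library 4 the number lower was 4.

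Of 20 junction and adhesion genes of the GRHL2, KLF5 and ELF3 program, 3 were higher and 9 lower, beside 21.1% and 21.8% of all genes, with a median of -0.01. The balance depended on the scaling: 7 were higher and 5 lower with library size alone, and 5 each with upper-quartile factors. Ovol1, a zinc-finger gene of epithelial differentiation, averaged 20.1 ± 4.46 CPM in PRDM3/16KO and 55.7 ± 5.09 CPM in Control (-1.46; edgeR, adjusted p = 1.52e-07). Cldn3 (-0.78) was lower, the desmosome gene Dsp (0.61) was higher, and Krt19 did not pass (0.17; edgeR, adjusted p = 0.134). The number lower was 5 without PRDM3/16KO library 2 or 3 or Control library 1. The number higher was 1 without PRDM3/16KO library 2 or 4 or Control library 3, 5 or 6.

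Of 16 factors of gut and other endoderm, 5 passed the filter on low counts, so no statement is made for the whole list. Prox1 averaged 50.6 ± 2.81 CPM in PRDM3/16KO and 11.4 ± 3.26 CPM in Control (2.16; edgeR, adjusted p = 1.13e-08). Gata5 and Sox17 did not pass, and Foxa3 is given above.

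Over the 11 libraries, with each group's mean taken off, the genes whose log2 CPM followed Nkx2-1 most closely were Ttc23 (Pearson r = 0.95), Acin1 (0.93) and Ddx39b (0.93), and none of these was called. For Elf5 they were Taz, the tafazzin gene (0.94), Prdm4 (0.88) and Mta3 (0.88). These are the highest of 13916 values over 11 libraries and are given as a description.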

How the data were processed

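Messenger RNA of EpCAM-selected E17.5 mouse lung cells was counted in 5 PRDM3/16KO and 6 Control libraries, grouped by the genotype given in the labels. The authors deposited 1 table of whole-number counts per gene symbol. Per the submitters' processing notes, the build was mm10 and the tools were DESeq2, HTSeq 2.0, Bowtie2 2.4.2, Trim Galore 0.4.2, Picard 2.18.22, FastQC and SAMtools 1.10.0, listed with no role. Not given in the sources used here are the annotation, the strand setting and what was done with duplicate reads. Elf3, Cebpa, Nkx2-1, Grhl2 and Gata6 each have an annotated antisense gene whose span reaches over an exon. Whether exons of both overlap was not examined, and reads from a shared stretch cannot be told apart. Only the antisense gene of Gata6 has its own row. Spreadsheet software had turned 27 symbols into dates, and 2 symbols stood on several lines; none of these is named.

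From the deposited counts, genes were filtered with edgeR's filterByExpr, library sizes were scaled by TMM, and PRDM3/16KO was compared with Control by the two-sided quasi-likelihood F-test of edgeR 4.0.16 under R 4.3.3. P-values were adjusted by Benjamini-Hochberg over all 13916 genes, and a gene was called under 0.05. The 95% intervals are the standard error times the t quantile for 9 residual degrees of freedom. Ratios of 2 factors used counts plus 0.5 and an exact permutation test over libraries, adjusted over 13 pairs. Levels per kilobase used the union of exons in GENCODE release M21, whose coordinates (mm10, counted from 1) are given. The steps were tested on simulated data. Alternatives included DESeq2 1.42.0 and limma-voom (limma 3.58.1), other scalings and filters, covariates, each library left out and the replicate number as a block.

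The factors and the lists of relatives, partners, targets and cell type markers were chosen with earlier results of these data known, as were the alternatives without Control libraries 5 and 6 and by Y-linked transcripts, divided at a mean log2 CPM of 3. Named genes are the 10 factors, Prdm16, Mecom and Epcam, and from each related list up to 3 called members with the smallest adjusted p plus the most abundant uncalled one; 1 gene that this rule takes is not reported here. For Nkx2-1 and the factor with the smallest p, the 3 most correlated genes are added. Neighbouring genes, Sox17 and the cell type markers Krt5, Krt15 and Msln fall outside this rule and were chosen after their values were seen.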

Additional observations from a re-analysis of the deposited data

Results flagged for a closer look

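Among 46 sets of values examined, 1 library stood apart from the others of its group. Foxa2 was counted at 249 CPM in Control library 6, while the other 5 Control libraries ran from 189 to 201 CPM, so that the gap took up 0.80 of the group's range. Chance alone sets a library apart in about 1 in 20 such groups. Without this library the Foxa2 log2 fold change was 0.44 (edgeR, adjusted p = 0.000101), beside 0.38 with it.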

How the results depend on the processing

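The counts of factors called, 3 higher and 4 lower, were the same with each single library left out, while the genes called ran from 2644 to 3120 higher, from 2620 to 3269 lower and from 5375 to 6389 in all, and the ratios called from 12 to 13 of 13. Among libraries with low Y-linked transcripts (4 PRDM3/16KO, 2 Control), 1932 genes were higher and 1821 lower, 3753 in all, beside 2936, 3037 and 5973 for all libraries, and 1 factor was higher, Ehf. Among those with high Y-linked transcripts (1 PRDM3/16KO, assumed to vary like the others, and 4 Control), 869 were higher and 933 lower, 1802 in all. The log2 fold change of Gata6 turned to 0.049 in this last set and that of Grhl2 to 0.021 with library size alone, neither called. Library size alone put 65.6% of calls on the higher side and upper-quartile factors 57.9%, beside 49.2%. Without Control libraries 5 and 6, 11 of 13 ratios were called, and those of Gata6 (adjusted p = 0.0688) and Grhl2 (0.143, exact permutation test) to Nkx2-1 were not.

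Libraries of the 2 groups share replicate numbers, but same-numbered libraries did not deviate together (correlations of -0.06, 0.10, -0.05, 0.01 and 0.27), so the numbers were not read as pairs. With the replicate number as a block, the same 7 factors were called and 3065 genes were higher and 3105 lower by edgeR. For the ratios, 0 of 13 passed an exact sign-flip test of the 5 pairs, which cannot give a p below 0.0625 (lowest adjusted p = 0.0739). Depth limits the factors little, since the lowest count of any factor in any library was 241.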
